A study of Mus musculus with 11 samples.

Results

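The medial piece of the mouse mandibular arch was compared between E11.5 and E10.5, stages counted in embryonic days. The members of the comparison are the 2 arrays of medial tissue at E11.5 and the 3 arrays of medial tissue at E10.5, chosen by their titles, which are 5 of the 11 arrays of the series. All 18194 genes with a named probe set were read on each array. RNA was measured on Affymetrix arrays with 45101 probe sets, and the small number of arrays limits the precision. Both groups came from ICR embryos, an outbred mouse stock, and the labels name no transgene or treatment in any group. Per the labels, the RNA of each time point was a pool of 40 embryos, so the p-values below speak to how far single arrays of a stage scatter, which may be technical scatter, and not to how embryos differ. At E10.5 the medial piece was cut at the far end of the paired lateral lingual swellings, and the remainder of the arch was the lateral piece. Its 3 arrays are used below for reference. They also entered the filter on low signal and the shared estimate of spread behind each SE and p-value. How the medial piece was cut at E11.5 is not given in the sources used here, so the stage and the place of the cut cannot be told apart. Other arrays of the series used here are 1 medial array at E9.7 and 1 array at E14.5 that is labelled as tongue and as its anterior part.

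The mandibular arch is a bud of neural crest mesenchyme around a core of mesoderm, covered by ectoderm outside and endoderm inside. The crest cells form the jaw skeleton and connective tissue, and the mesoderm core and incoming myoblasts from the occipital somites form the jaw and tongue muscles. The paired swellings at the medial end of the arch merge into the front of the tongue. Position along the arch is set by homeobox and other transcription factors, among them the Hand, Msx, Dlx and Lhx families, under signals of the endothelin, BMP, FGF, hedgehog and Wnt families from the epithelium.

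As deposited, the median log2 signal was 2.37 on E10.5 array 1 and 2.47 on E11.5 array 1, and 5.20 to 5.73 on the other 9 arrays. All values below are on the log2 scale after quantile normalization across the 11 arrays, which gives every array the same distribution. After it, a probe set for the start of 18S ribosomal RNA read 11.8 and 11.4 on these low arrays and 7.51 to 9.32 on the others. Their part in the results was not tested, but each result was also computed without them and within each replicate number. The tissue label was checked against arch markers: 11.55, 11.85 and 11.88 at E10.5 and 10.76 and 11.16 at E11.5 for Hand2, a marker of the distal arch. Hoxa2, which marks the next arch behind, lay at 2.74, 2.63 and 2.67 at E10.5 and 3.69 and 3.69 at E11.5, below the 4.86 that 50% of all values reach, and none of the 5 Hox genes tested was called by limma, with 0 at an unadjusted p under 0.05. With no filter 1 of 12 Hox genes measured was called higher, Hoxa2 itself (1.01 ± 0.12, adjusted p = 0.000931), at signals below the filter.

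Medial tissue at E11.5 had far more muscle RNA than at E10.5. It had much less RNA of some transcription factors of the early distal arch, such as Msx1, Msx2 and Tbx2. Hand2 differed by -0.80, and its call ended without E10.5 array 2 or E10.5 array 3. Hand1 was not called. Of 11968 genes tested with limma, 517 were higher at E11.5 (4.32% of those tested) and 311 were lower (2.6%) at an adjusted p under 0.05, which is 828 in all (6.92%). These shares are the background for the list counts below. The median difference over all genes tested was 0.0033, and 2155 genes had an unadjusted p under 0.05. Among the called genes 291 were at least 2-fold higher and 131 at least 2-fold lower, and 30 were at least 8-fold higher against 9 at least 8-fold lower. The values on the 2 E11.5 arrays lay apart from those on the 3 E10.5 arrays in all 828 called genes, and in 28.4% of all genes tested. On the values as deposited, where the low arrays were not brought to the scale of the others, limma called 1 gene, Cxcl14, as lower, and every other call below therefore rests on the scaling. There the median over all genes tested was -0.66, so smaller rises changed sign: the list medians of retinoid, BMP and Wnt antagonist genes, positive after the normalization, were then -0.14, -0.60 and -0.57. The count of higher genes was 327 without E11.5 array 2, and the count of lower genes was 194 without E10.5 array 2 and 193 without E11.5 array 1.

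**Figure D1:**
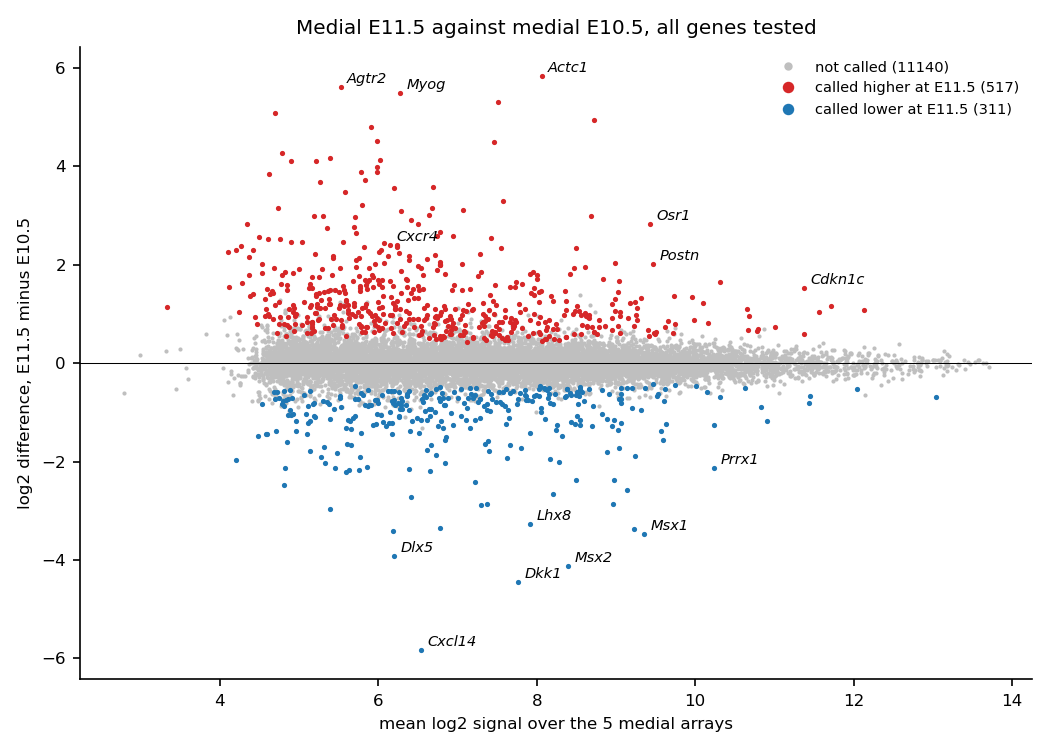
The plot shows, for each of the 11968 genes tested, the log2 difference between medial tissue at E11.5 and E10.5 (y axis) against its mean log2 signal over the 5 medial arrays (x axis). Red points are the 517 genes called higher at E11.5, blue points the 311 called lower and grey points the rest, with Actc1 and Agtr2 at the top and Cxcl14 at the bottom.

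Of the 20 largest rises, 11 were in genes of the lists of muscle precursors and differentiated muscle. Myog, the factor that commits myoblasts to differentiate, read 3.81, 3.84 and 4.61 at E10.5 and 9.44 and 9.7002 at E11.5. Its difference was 5.48 ± 0.23 (log2 difference ± SE, n = 3 and 2), or 44.7-fold, with a limma adjusted p of 5.85e-06. Myod1, one of the factors that determine the muscle lineage, went from 4.10, 4.44 and 4.56 to 8.26 and 8.73, a rise of 4.13 ± 0.18 (adjusted p = 5.85e-06). Myf5, the other early determination factor, was at 4.63, 4.46 and 3.92 on the E10.5 arrays and at 8.36 and 7.77 on the E11.5 arrays (3.73 ± 0.35, adjusted p = 0.000249). In each of these genes both E11.5 arrays stood more than 3 log2 units above every E10.5 array. Myf6, the fourth factor of this family, did not pass the filter on low signal and lay between 2.81 and 3.13 on all 5 arrays.

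Factors of the head mesoderm that precede the determination genes rose as well. Tcf21, a bHLH factor of jaw muscle precursors and fibroblasts, measured 5.44, 5.55 and 5.25 at E10.5 and 8.65 and 8.49 at E11.5, a difference of 3.16 ± 0.16 (adjusted p = 1.32e-05). Msc (musculin), its partner in the same precursors, rose by 3.002 ± 0.18, from 5.30, 5.24 and 5.76 to 8.31 and 8.57. Tbx1, a T-box factor needed for the mesoderm core of the arch, had E10.5 values of 6.39, 6.43 and 6.38 and E11.5 values of 8.31 and 8.93 (2.22 ± 0.17, adjusted p = 0.000103). The 3 E10.5 values of Tbx1 lay within 0.1 of each other, and both E11.5 values lay apart above them. Several markers of the migrating tongue myoblasts were also higher. Lbx1, which marks myoblasts that leave the somites, rose by 1.59 ± 0.22 from 5.27, 4.94 and 5.44 to 6.58 and 7.03. Met, the receptor that these cells need to migrate, rose by 2.05 ± 0.21, and Cdh15, the muscle cadherin, by 2.38 ± 0.14. Pax3, a factor of the somitic progenitors, read 6.35, 6.02 and 6.37 and 7.54 and 6.78 and was not called (difference 0.91 ± 0.26, adjusted p = 0.0748).

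Since 2 of the 11 tested genes of the muscle precursor list passed the filter only through their E11.5 values, the list was also counted with no filter, over all 13 measured genes. In that fit 9 of 13 were higher at E11.5 and 0 were lower, with a median difference of 2.22. Over all 18194 genes without the filter, 2.78% were called higher and 1.46% lower, with a median of 0.01. With the filter 9 of 11 were called, and 9 to 10 of 11 in the fits that leave out 1 array.

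Genes of the contractile apparatus were among these largest rises. Actc1, the cardiac alpha actin that is also the main actin of embryonic skeletal muscle, had the largest rise of all genes tested. It read 5.25, 5.74 and 6.19 at E10.5 and 11.40 and 11.73 at E11.5, a difference of 5.84 ± 0.26, or 57.2-fold (adjusted p = 6.65e-06). Tnnt1, the slow troponin T that ties the troponin complex to tropomyosin, rose by 5.30 ± 0.17 from 5.31, 5.38 and 5.47 to 10.52 and 10.86. Myl1, an alkali light chain of myosin, rose by 5.08 ± 0.29: its E10.5 values were 2.07, 2.68 and 3.24, all below the 4.86 of the filter, and its E11.5 values were 7.72 and 7.77. No E10.5 array came near the E11.5 values in these genes.

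The E11.5 arrays differed from each other more in some of the fibre genes. Myh3, the embryonic myosin heavy chain, was at 2.76, 3.69 and 3.29 on the E10.5 arrays and at 6.42 and 8.30 at E11.5 (4.12 ± 0.48, adjusted p = 0.000811). Ttn (titin), the giant spring of the sarcomere, went from 3.48, 3.50 and 3.74 to 6.99 and 8.35 (4.10 ± 0.33). In both, E11.5 array 2 was more than 1 log2 unit above E11.5 array 1. Tnnc2, the calcium sensor of fast fibres, rose by 3.68 ± 0.16, and Tnnc1, its slow counterpart, by 3.21 ± 0.36. Mylpf, the regulatory light chain of fast fibres, rose by 3.56 ± 0.26, Myl4, an embryonic light chain, by 2.52 ± 0.28, and Tnnt2 by 2.82 ± 0.29. Mymx, the small membrane protein with which myoblasts fuse, read 3.57, 3.08 and 2.61 at E10.5 and 6.89 and 6.95 at E11.5 (3.83 ± 0.25). Rbm24, an RNA-binding protein that directs muscle splicing, rose by 4.17 ± 0.23, and Synpo2l, an actin-associated protein of the Z-disc, by 3.98 ± 0.21. Chrna1, the alpha subunit of the acetylcholine receptor at the nerve-muscle junction, rose by 1.79 ± 0.15 from 3.95, 3.93 and 4.33 to 5.84 and 5.88. The calcium pump Atp2a1, the calcium store protein Casq2, the inhibitory troponin Tnni1, the myosin-binding protein Mybpc1 and the excitation-coupling adaptor Stac3 rose by 1.19 to 1.97.

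Ckm, the muscle creatine kinase, read 5.55, 4.87 and 4.95 at E10.5 and 5.20 and 5.07 at E11.5, and its groups overlap. Neb (nebulin), which sets the length of thin filaments, did not pass the filter: it lay at 2.10, 2.28 and 2.40 and at 3.80 and 5.97. Myh8, the perinatal myosin heavy chain, showed the same order, with 2.60, 2.63 and 2.59 and 4.34 and 5.70, and was not tested either. Both stood above all E10.5 arrays on both E11.5 arrays, with E11.5 array 2 the higher, and both were called in the fit with no filter (adjusted p = 0.0117 for Neb and 0.00133 for Myh8). At E14.5, on the tongue array, Neb read 9.94, Myh8 10.88 and Ckm 9.17. Of the 28 tested genes of the list of differentiated muscle, 14 passed the filter only through their E11.5 values. Over all 34 measured genes with no filter, 27 were called higher and 0 lower, with a median difference of 1.87. With 1 array left out, between 19 and 23 of the 28 were called. The values used here carry no detection call, so it is not known which values below the filter are above background. In such bulk tissue more muscle cells and more muscle RNA per cell cannot be told apart.

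The promoters of 4 of these genes are shown because muscle determination factors bind E-boxes, short sites with the letters CANNTG, and these genes rose together. Each runs from 250 bases before to 50 bases after the gene's start in RefSeq (GRCm38.p6), 5′ to 3′ on the gene's own strand, with E-boxes in capitals.
Myog, chr1:134289754-134290053, plus strand: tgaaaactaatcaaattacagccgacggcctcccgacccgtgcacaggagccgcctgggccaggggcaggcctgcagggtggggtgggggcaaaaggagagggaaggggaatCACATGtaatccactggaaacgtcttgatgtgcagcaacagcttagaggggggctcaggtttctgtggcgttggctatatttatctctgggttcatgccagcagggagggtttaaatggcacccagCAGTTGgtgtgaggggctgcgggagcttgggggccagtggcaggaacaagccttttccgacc
Actc1, chr2:114052826-114053125, minus strand: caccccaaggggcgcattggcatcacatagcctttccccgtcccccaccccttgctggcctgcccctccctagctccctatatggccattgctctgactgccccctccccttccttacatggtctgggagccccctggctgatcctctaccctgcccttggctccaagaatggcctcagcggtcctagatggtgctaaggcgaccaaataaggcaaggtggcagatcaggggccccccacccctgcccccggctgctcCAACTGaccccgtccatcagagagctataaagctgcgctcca
Myl1, chr1:66945007-66945306, minus strand: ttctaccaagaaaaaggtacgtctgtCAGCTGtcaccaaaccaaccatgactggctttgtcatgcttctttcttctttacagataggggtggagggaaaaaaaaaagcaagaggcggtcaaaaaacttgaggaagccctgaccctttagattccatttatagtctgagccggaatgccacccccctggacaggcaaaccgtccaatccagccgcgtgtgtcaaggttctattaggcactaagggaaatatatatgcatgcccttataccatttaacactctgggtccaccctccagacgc
Chrna1, chr2:73580289-73580588, minus strand: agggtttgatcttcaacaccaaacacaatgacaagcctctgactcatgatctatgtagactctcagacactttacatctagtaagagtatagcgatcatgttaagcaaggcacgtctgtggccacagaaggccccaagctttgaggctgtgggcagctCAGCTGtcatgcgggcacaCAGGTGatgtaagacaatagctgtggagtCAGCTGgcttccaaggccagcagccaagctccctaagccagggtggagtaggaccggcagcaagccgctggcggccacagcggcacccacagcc
The script found 2 E-boxes in the window of Myog, 1 in that of Actc1, 1 in that of Myl1 and 3 in that of Chrna1. An E-box in either orientation is common: 75% of the 27025 promoters in the table hold at least 1, and so do 85.2% of the 27 promoters found for the 33 muscle genes that rose. The form CAGCTG, which is 1 kind of E-box, was in 37% of those 27 and in 18.3% of all. The window of Myl1 holds 1 and that of Chrna1 holds 2. A match of letters is a description of the window and not a bound site.

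**Figure D2:**
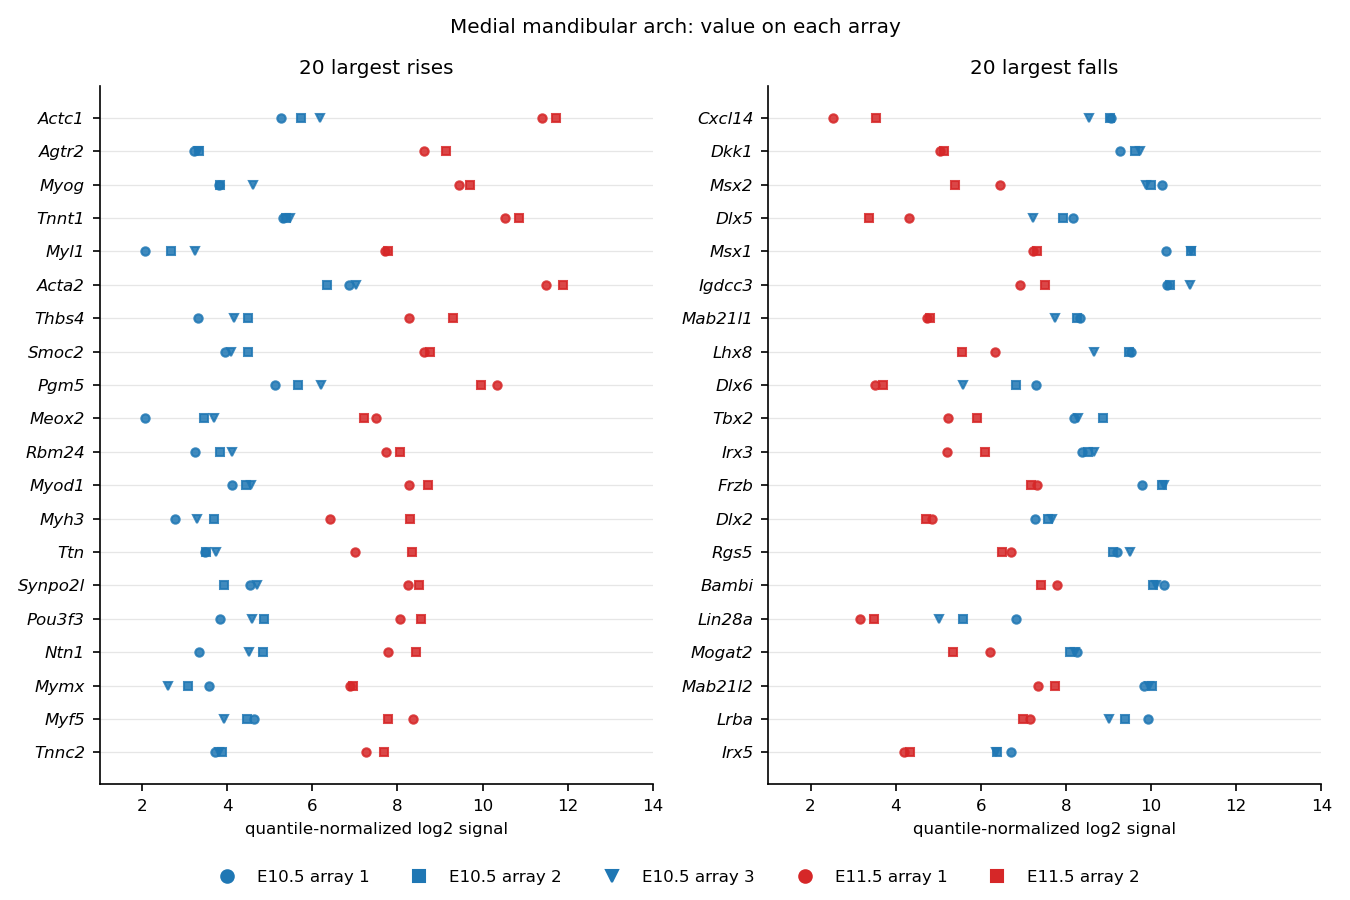
The plot shows the quantile-normalized log2 signal (x axis) of the 20 genes with the largest rises (left) and the 20 with the largest falls (right) on each of the 5 medial arrays, blue for E10.5 and red for E11.5. The genes were chosen among calls whose arrays do not overlap, so in every row the red points lie apart from the blue points.

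Among the other large rises, genes of connective tissue and of receptors stood out by size. Agtr2, the type 2 receptor of angiotensin II, which is high in fetal mesenchyme, read 3.21, 3.33 and 3.32 at E10.5 and 8.63 and 9.15 at E11.5. The difference of 5.60 ± 0.17, or 48.6-fold, had the smallest adjusted p of all genes tested (1.55e-06), which it shared with Tnnt1. Its E10.5 values lay below the filter and within 0.2 of each other. Acta2, the smooth muscle actin that early skeletal muscle also makes, rose by 4.95 ± 0.21 from 6.85, 6.34 and 7.03 to 11.49 and 11.89. Its probe set is of a kind that can cross-hybridize within a gene family, and Actc1 is a member of that family. Thbs4, a thrombospondin of tendon and muscle attachments, rose by 4.80 ± 0.37, and Smoc2, a calcium-binding matrix protein, by 4.52 ± 0.23 from 3.95, 4.49 and 4.08 to 8.62 and 8.77. Pgm5, a protein of muscle attachment plaques, rose by 4.48 ± 0.33. Meox2, a homeobox factor of muscle and vascular precursors, was at 2.07, 3.46 and 3.69 and then at 7.50 and 7.20 (4.28 ± 0.41, adjusted p = 0.00029). Gfra1, a receptor subunit for the nerve growth factor GDNF, rose by 2.97 ± 0.24. Cxcr4, the chemokine receptor of migrating cells, rose by 2.41 ± 0.21, from 4.82, 5.57 and 5.17 to 7.58 and 7.61.

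The opposite side of the comparison was led by Cxcl14, a chemokine that is made by embryonic epithelium and mesenchyme. It read 9.07, 9.02 and 8.53 at E10.5 and 2.54 and 3.54 at E11.5, a difference of -5.84 ± 0.29, or 57.1-fold lower (adjusted p = 1.32e-05). Both E11.5 values lay below the filter. A further probe set of Cxcl14 had a smaller difference of -2.88. Msx1 and Msx2, homeobox repressors that respond to BMP in the distal arch, were also among the 5 largest falls. Msx1 measured 10.36, 10.94 and 10.94 at E10.5 and 7.24 and 7.31 at E11.5, a difference of -3.47 ± 0.19 or 11.1-fold (adjusted p = 1.82e-05). Msx2 measured 10.25, 10.001 and 9.89 and 6.45 and 5.39, a difference of -4.13 ± 0.27 or 17.5-fold. Both genes separated the stages by 3 units or more on every pair of arrays.

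Other factors of the distal list fell by less. Prrx1, a paired-related homeobox factor of limb and face mesenchyme, went from 11.42, 11.09 and 10.76 to 9.01 and 8.91 (-2.13 ± 0.18, adjusted p = 0.000154), and its relative Prrx2 from 9.64, 9.69 and 9.51 to 7.89 and 7.72 (-1.81 ± 0.12). Tbx2, a T-box repressor of the distal arch, read 8.19, 8.86 and 8.28 and then 5.23 and 5.90 (-2.88 ± 0.25, adjusted p = 0.000166), and Tbx3, its close relative, 8.51, 8.46 and 8.48 and then 6.66 and 6.88 (-1.72 ± 0.12). Gata3, a zinc finger factor of the distal mesenchyme, fell by 1.26, from 7.54, 7.50 and 7.29 to 6.14 and 6.24, an SE of 0.14. In these genes the E11.5 values were below every E10.5 value and the calls held without any 1 array.

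Other factors of the distal arch were called by narrower margins or not at all. Hand2, which specifies the distal arch, read 11.55, 11.85 and 11.88 at E10.5 and 10.76 and 11.16 at E11.5 (-0.80 ± 0.17, adjusted p = 0.0253). Isl1, a LIM homeobox factor of distal epithelium and mesenchyme, had a difference of -0.81 ± 0.19 (adjusted p = 0.0368), and Alx1, an aristaless-type homeobox factor, of -1.17 ± 0.29 (adjusted p = 0.0447). The calls of Hand2 and Isl1 ended without E10.5 array 2, without E10.5 array 3 and without E11.5 array 1, with adjusted p up to 0.156 and 0.21. The call of Alx1 ended without any of the arrays other than E10.5 array 1, with adjusted p up to 0.21. Hand1, the partner of Hand2, was not called: it read 7.60, 8.53 and 9.05 and 7.11 and 7.68, with overlapping groups (-1.002 ± 0.40, adjusted p = 0.23). Alx4 (-0.76 ± 0.19, adjusted p = 0.0501), Gata2 (-0.88 ± 0.23, adjusted p = 0.0601) and Zfhx3 (-0.28 ± 0.14, adjusted p = 0.362) had lower E11.5 values on both arrays and were not called either. In the distal list as a whole 10 of 14 tested genes were lower and 0 higher, with a median difference of -1.21. With no filter the count was 9 of 14. Both E11.5 arrays lay below every E10.5 array in 13 of 14, where the groups of 28.4% of all genes tested lay apart in either direction. The summed signal of epithelial markers was also lower at E11.5, and its part in these falls was not tested.

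Factors of the proximal and oral side of the arch split into genes that fell and genes that rose. The Dlx genes, which encode the proximal to distal axis of the arch in nested fashion, were called lower in 5 of 6 cases. Dlx5 read 8.16, 7.93 and 7.22 at E10.5 and 4.32 and 3.37 at E11.5 (-3.92 ± 0.31, adjusted p = 0.000114). Dlx6, its neighbour on the chromosome, read 7.29, 6.84 and 5.59 and 3.52 and 3.70 (-2.96 ± 0.42, adjusted p = 0.00258), and E10.5 array 3 was the lowest at E10.5 by more than 1 unit. Dlx2 read 7.28, 7.57 and 7.67 and 4.85 and 4.70 (-2.73 ± 0.16, adjusted p = 2.78e-05). In the lateral piece at E10.5 these 3 genes read 9.50 ± 0.07, 7.90 ± 0.28 and 9.79 ± 0.20 (mean ± SD, n = 3), above every medial array. Dlx1 (-2.14 ± 0.48, adjusted p = 0.0313) and Dlx3 (-1.03 ± 0.24, adjusted p = 0.0368) were also called lower. The call of Dlx1 ended without E10.5 array 2 or without either E11.5 array (adjusted p up to 0.147), and that of Dlx3 without E10.5 array 1, E10.5 array 2 or E11.5 array 2 (up to 0.178). A further probe set of Dlx3 had a difference of 0.01. Dlx4 lay between 4.004 and 4.63 and was not called (0.29 ± 0.15).

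Lhx8, a LIM homeobox factor of the oral mesenchyme, fell by 3.27 (SE 0.29, adjusted p = 0.000199). It read 9.53, 9.48 and 8.66 at E10.5 and 6.33 and 5.57 at E11.5. Lhx6, with which it shares its place in the arch, read 7.26, 6.87 and 5.99 and 7.22 and 7.25, and its groups overlap (0.53 ± 0.31, adjusted p = 0.444). Barx1, a homeobox factor of the molar field, was not called (-1.31 ± 0.42, adjusted p = 0.123), with E10.5 values of 7.75, 7.48 and 5.997. E10.5 array 3 was the lowest of the E10.5 arrays in Lhx6, Lhx8, Barx1, Dlx1, Dlx3, Dlx5 and Dlx6, and the lateral mean of each lay above every medial E10.5 array, a difference not tested here. Pitx1, a factor of the oral and lower jaw field, read 8.50, 7.76 and 6.85 and 7.63 and 7.57 and overlapped as well (-0.10 ± 0.41). A further probe set of Pitx1 had a difference of -0.87.

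The rises in the proximal list were led by Pou3f3, a POU factor of the proximal arch. It read 3.83, 4.87 and 4.59 at E10.5 and 8.07 and 8.55 at E11.5, a difference of 3.88 ± 0.37 or 14.7-fold (adjusted p = 0.00029), against 7.04 ± 0.57 in the lateral piece at E10.5. Shox2, a short stature homeobox factor, rose from 3.63, 4.20 and 3.63 to 5.09 and 4.64 (1.04 ± 0.21, adjusted p = 0.0189), which is far below its lateral level of 8.52 ± 0.16. Sim2 (1.14 ± 0.28, adjusted p = 0.0473) and Gsc, the homeobox factor goosecoid (0.77 ± 0.18, adjusted p = 0.039), were called by narrow margins. The call of Shox2 ended without E10.5 array 3 or E11.5 array 1 (adjusted p up to 0.135). Sim2 kept its call only without E10.5 array 1 and Gsc only without E10.5 array 2, and their adjusted p reached 0.231 and 0.175. Gbx2 and Emx2, which read 6.91 ± 0.25 and 6.20 ± 0.51 in the lateral piece, were at 3.48 or less on all 5 medial arrays and were not called. Nkx3-2, a factor of the jaw joint, did not pass the filter, with values of 3.89 to 4.19. Of the 16 proximal genes tested 4 were higher and 6 lower, with a median of -0.36. The count of higher genes was 2 with no filter, 1 without E10.5 array 3, 1 without E11.5 array 1 and 2 without E11.5 array 2.

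Transcription factors of the oral and tongue mesenchyme outside these lists moved in both directions. Osr1 (odd-skipped related 1), a zinc finger factor that is expressed in the tongue mesenchyme, rose from 8.06, 8.33 and 8.51 to 11.26 and 10.99. That is a difference of 2.83 ± 0.15 (adjusted p = 1.82e-05). A list of T-box, Osr and related factors also holds Tbx1, Tcf21 and Msc. Of its 7 genes tested 4 were higher (Osr1, Tbx1, Tcf21 and Msc) and 1, Tbx22, was lower, with a median of 2.22. Tbx1, Tcf21 and Msc are also counted in the muscle precursor list. The list does not hold Tbx2 and Tbx3, which are in the distal list and had differences of -2.88 and -1.72. Of all 9 measured with no filter 5 were higher and 1 lower, with a median of 1.15. Osr2, the relative of Osr1 in the palate and molar region, read 3.90, 3.87 and 3.52 and 4.27 and 5.12 and was not called (adjusted p = 0.0834). Tbx22, a T-box factor of palate and tongue base, fell by 1.56 from 7.61, 7.79 and 7.01 to 5.99 and 5.82 (adjusted p = 0.00198). The Iroquois genes Irx3 and Irx5, which share a cluster, fell by 2.87 and 2.21. Mab21l1 and Mab21l2, which act in eye and arch development, fell by 3.34 and 2.38. Irx3 read 8.39, 8.51 and 8.65 and 5.21 and 6.09, and Mab21l1 read 8.34, 8.26 and 7.74 and 4.73 and 4.80, again with no E11.5 value near an E10.5 value. Eya1, a transcriptional coactivator, fell by 1.29 (adjusted p = 0.00311). Foxd1, a forkhead factor of face mesenchyme, rose by 0.98 ± 0.15, and Foxp1 by 0.73 ± 0.12. Zeb1, a factor of mesenchymal state, rose by 1.04 ± 0.13.

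**Figure D3:**
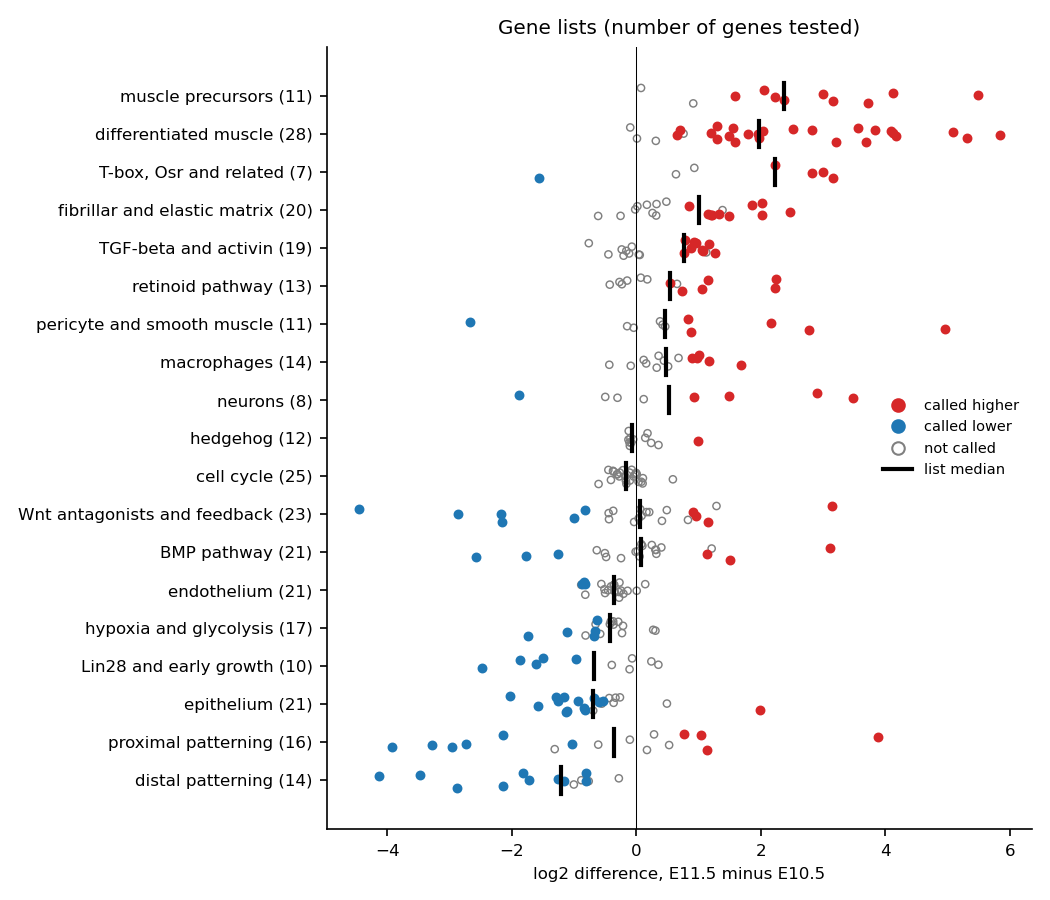
Each point is 1 gene tested, placed by its log2 difference between E11.5 and E10.5 (x axis) within its gene list (rows, number tested in brackets). Red and blue points are called higher and lower, open points are not called, and black bars are list medians. Among the 19 lists drawn they run from 2.38 in muscle precursors to -1.21 in distal patterning. The T-box row does not hold Tbx2 and Tbx3, which are in the distal patterning row.

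Secreted antagonists were among the genes that fell most. Dkk1, which blocks Wnt coreceptors, read 9.27, 9.63 and 9.74 at E10.5 and 5.05 and 5.14 at E11.5. The difference was -4.45 ± 0.18, or 21.8-fold (adjusted p = 5.85e-06). Frzb, a secreted decoy that binds Wnt ligands, read 9.78, 10.26 and 10.30 and 7.32 and 7.18 (-2.86 ± 0.17). Both genes lay above the filter on all 5 arrays, and the stages stood more than 2 log2 units apart. Igdcc3, a membrane protein of the immunoglobulin family, fell by 3.37, from 10.38, 10.45 and 10.92 to 6.92 and 7.50. Rspo1, which strengthens Wnt signals, moved the other way, from 3.12, 3.58 and 3.73 to 6.29 and 6.95 (3.14 ± 0.26, adjusted p = 0.000152). Axin2 and Lef1, both targets and parts of the Wnt pathway, had differences of -0.83 ± 0.14 and -0.9999 ± 0.13 (adjusted p = 0.00658 and 0.00192). Sfrp1, a further secreted Wnt binder, rose by 0.91 ± 0.16. Of all 25 measured Wnt antagonists and feedback genes 4 were called higher and 6 lower with no filter, with a median of 0.04, and without E11.5 array 2 the higher ones were 2. Among the Wnt ligands and receptors Wnt9b, an epithelial ligand, fell by 1.66, Wnt11 rose by 1.11 ± 0.20 and the receptor Fzd4 rose by 1.55 ± 0.16.

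BMP genes were called in both directions. Fst (follistatin), which binds activin and BMPs, rose from 5.69, 5.69 and 6.08 to 9.004 and 8.86, a difference of 3.11 ± 0.20 (adjusted p = 3.88e-05). Bambi, a decoy receptor that BMP itself induces, fell from 10.31, 10.05 and 10.13 to 7.78 and 7.41 (-2.57 ± 0.15, adjusted p = 2.5e-05). The inhibitors of bHLH factors Id4 and Id2 fell by 1.78 and 1.26 (adjusted p = 0.000183 and 0.00491). Bmp4, the main ligand of the distal arch epithelium, read 9.30, 9.77 and 9.85 at E10.5 and 9.75 and 10.14 at E11.5, and its groups overlap (0.31 ± 0.20, adjusted p = 0.502). Over the 21 BMP genes tested 3 were higher and 3 lower, with a median of 0.08.

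The TGF-beta and activin genes called with all arrays were higher. Of 19 tested 9 were higher at E11.5 and 0 lower, against 4.32% and 2.6% of all genes tested. The median difference of the 19 was 0.77. The ligand Tgfb1 had a difference of -0.76 and was not called. Without E10.5 array 1 the counts were 9 higher and 1 lower. Ltbp3, which holds latent TGF-beta in the matrix, rose by 1.16 ± 0.12 (adjusted p = 0.000503), and Tgfbi, a matrix protein that TGF-beta induces, by 0.96 ± 0.14 (adjusted p = 0.00316). The ligands Tgfb3 and Tgfb2 had differences of 1.26 ± 0.24 and 1.05 ± 0.19 and the receptor Tgfbr2 one of 0.93 ± 0.17, with adjusted p of 0.0122, 0.0121 and 0.0104. Their calls ended without E11.5 array 2 (adjusted p = 0.0727, 0.0884 and 0.0733), and without that array 2 of the 19 were called higher. A further probe set of Tgfbr2 had a difference of 0.16.

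The fibrillar matrix genes called with all arrays were also higher. Postn (periostin), a matrix protein of fibroblasts and periosteum, read 8.39, 8.93 and 8.68 at E10.5 and 10.67 and 10.69 at E11.5 (2.01 ± 0.19, adjusted p = 0.000246). Lox, the enzyme that crosslinks collagen and elastin, read 4.18, 4.68 and 4.86 and 6.62 and 7.45 (2.46 ± 0.26). Col6a2, a chain of the collagen VI that surrounds muscle and nerve, rose by 1.86 ± 0.24, Fbln5, an elastic fibre protein, by 1.50 ± 0.18, and Col5a1, which starts collagen fibrils, by 1.21 ± 0.21. Lama2, the laminin chain of the muscle basement membrane, rose by 1.93 ± 0.19 and Ogn (osteoglycin) by 2.16 ± 0.21. Of the 20 fibrillar matrix genes tested 10 were higher and 0 lower, against 4.32% and 2.6% of all genes tested. The list median was 1.002, and 5 were called higher without E11.5 array 2. Lum (lumican), a proteoglycan of collagen fibrils, went the other way, from 8.59, 9.23 and 9.46 to 7.07 and 7.08 (-2.01 ± 0.22, adjusted p = 0.000609).

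The retinoid genes called with all arrays were higher at E11.5. Aldh1a2, the main enzyme of retinoic acid synthesis in the embryo, read 5.75, 5.23 and 5.12 at E10.5 and 7.50 and 7.71 at E11.5 (2.24 ± 0.19, adjusted p = 0.000172). Rxrg, a retinoid receptor that is found in muscle, rose by 2.22 ± 0.14, and Cyp26b1, which breaks retinoic acid down, by 1.15 ± 0.16. Over all 16 measured retinoid genes with no filter 6 were higher and 0 lower, with a median of 0.36. In that fit 2.78% of all genes were higher and 1.46% lower. Of the 13 retinoid genes tested with the filter 6 were also called, against 3 without E11.5 array 1 and 3 without E11.5 array 2. Ednrb, an endothelin receptor, rose from 5.54, 5.83 and 6.35 to 8.35 and 8.65 (2.59 ± 0.22, adjusted p = 0.000166). Mef2c, a factor of muscle and of endothelin-driven arch patterning, rose by 0.95 ± 0.14. Edn1, the ligand that patterns the arch, read 5.44, 4.91 and 4.71 and 4.70 and 5.10 and was not called (-0.12 ± 0.22). Fgf18 rose by 1.37 ± 0.12, and Hey1, a target of Notch, by 0.89 ± 0.13. The hedgehog genes tested lay between -0.13 and 0.996, with a median of -0.07, and 1 of 12 was called, the coreceptor Boc (0.996 ± 0.20, adjusted p = 0.0193, lost without E11.5 array 2 at 0.107). Shh itself read 9.03, 9.12 and 9.51 and 9.18 and 9.16, with overlapping groups (-0.05 ± 0.16, adjusted p = 0.925).

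Most epithelial genes were lower at E11.5 in this tissue. Krt14, a keratin of basal cells, read 7.94, 7.61 and 7.44 at E10.5 and 5.85 and 5.41 at E11.5 (-2.03 ± 0.19, adjusted p = 0.000255). Krt8 and Krt18, the partner keratins of simple epithelium, fell by 1.25 and 1.28 (adjusted p = 0.00108 and 0.0014). Cldn7, a tight junction protein, fell by 1.58 and Epcam, an adhesion molecule of most epithelia, by 0.83 (adjusted p = 0.000221 and 0.00236). A further probe set of Epcam had a difference of -0.016. Itga6, the integrin of the basal epithelial surface, fell by 1.26 from 8.72, 8.76 and 8.82 to 7.36 and 7.65. Krt15, another basal keratin, rose from 5.81, 6.07 and 6.09 to 8.20 and 7.75 (1.99 ± 0.29, adjusted p = 0.00296), but its call ended without both low arrays (1.67, adjusted p = 0.0728). In each of these the 2 E11.5 values lay apart from the E10.5 values. Of the 21 epithelial genes tested 13 were lower and 1, Krt15, higher, against 2.6% and 4.32% of all genes tested. The list median was -0.69. With no filter 11 of 25 were lower, and without E10.5 array 2 or E11.5 array 1 there were 8. Without both low arrays 10 of the 21 were lower and 0 higher. The summed linear signal of the 25 genes was 4472 to 4932 on the E10.5 arrays and 2615 to 2773 at E11.5. The part of a smaller epithelial share in the falls of genes that the epithelium also makes, such as Dlx2, Dlx3 and Cxcl14, was not tested.

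Of 21 endothelial genes tested 0 were higher and 3 lower, 12 had an unadjusted p under 0.05 and the median was -0.36. Of all 11968 genes tested, 4.32% were higher and 2.6% lower, and 2155 had an unadjusted p under 0.05. Among all 23 endothelial genes measured, both E11.5 arrays lay below every E10.5 array in 14 genes and above in 1. The groups of 28.4% of all genes tested lay apart in either direction. Cldn5, a junction protein of vessels, fell by 0.87 (adjusted p = 0.00253). Rgs5, a regulator of G proteins that marks pericytes, fell from 9.20, 9.10 and 9.51 to 6.71 and 6.50 (-2.67 ± 0.18, adjusted p = 4.69e-05). Kcnj8, the potassium channel that also marks pericytes, rose from 4.47, 4.79 and 4.49 to 7.13 and 7.57 (2.77 ± 0.18, adjusted p = 3.88e-05). So 2 defining markers of the same cell type moved in opposite directions. In the same list Abcc9 was also called higher (2.17, and 0.68 on a further probe set). Pdgfrb (-0.04), Notch3 (-0.15) and Cspg4 (0.465) were not called. Over all 13 measured pericyte and smooth muscle genes 4 were called higher and 1 lower with no filter. With the filter 5 of 11 were higher, and 3 without E11.5 array 2.

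Macrophage and nerve genes rose in part. Mrc1, the mannose receptor of tissue macrophages, rose from 5.39, 5.46 and 5.28 to 6.90 and 7.22 (1.68 ± 0.17, adjusted p = 0.000381), and C1qa and Csf1r rose by 0.97 ± 0.12 and 0.89 ± 0.14. A further probe set of Csf1r had a difference of -0.04. With no filter 5 of 18 measured macrophage genes were higher and 0 lower, and with the filter 5 of 14 were, against 3 without E11.5 array 1 and 3 without E11.5 array 2. The share of all genes that was higher was 2.78% with no filter and 4.32% with it. Of all 16 measured nerve genes 4 were higher and 1 lower with no filter. Nefl and Nefm, the light and medium neurofilaments of axons, rose by 3.48 ± 0.24 and 2.90 ± 0.18 (adjusted p = 5.21e-05 and 2.97e-05). Nefl read 3.70, 4.22 and 4.66 at E10.5 and 7.55 and 7.80 at E11.5. Gap43, a growth cone protein, fell from 10.10, 9.84 and 10.03 to 8.52 and 7.69 (-1.88 ± 0.22). Erbb3, a receptor of Schwann cell precursors and muscle, rose by 1.78 ± 0.19, and Ngfr, the low-affinity neurotrophin receptor, by 2.17 ± 0.20. Ntn1 (netrin 1), a guidance cue, rose from 3.35, 4.85 and 4.50 to 7.77 and 8.43 (3.87 ± 0.38, adjusted p = 0.000344). Its receptor Unc5c fell by 1.24 (adjusted p = 0.000689), Epha3, an ephrin receptor, by 1.37 and Nrp2 by 0.86. Of 10 red cell genes tested 0 were higher and 2 lower, but 0 were lower without E10.5 array 2 or 3 and 1 without E10.5 array 1 or E11.5 array 2. The count of lower red cell genes was 2 without E11.5 array 1 and 3 without both low arrays. Of 3 serum and yolk sac genes and 4 sex-linked genes tested none was called by limma, with 0 and 0 at an unadjusted p under 0.05. With no filter 1 of 10 measured serum and yolk sac genes was called higher, Cubn (0.72 ± 0.16), a receptor of absorptive epithelia.

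Several early growth genes of the Lin28 group were lower at E11.5. Lin28a, which blocks maturation of the let-7 microRNAs, read 6.82, 5.59 and 5.01 at E10.5 and 3.17 and 3.48 at E11.5 (-2.48 ± 0.43, adjusted p = 0.00869), with E10.5 array 1 the highest. Its call ended without E11.5 array 1 (adjusted p = 0.0721). Trim71, a target of let-7, fell by 1.87, Sall4, a zinc finger factor of early cells, by 1.49 and Mycn by 0.96 (adjusted p = 0.00192, 0.000152 and 0.00102). A further probe set of Mycn had a difference of 0.18. Of 10 genes tested 5 were lower and 0 higher, with a median of -0.68, and without E11.5 array 1 there were 3. The shares of all genes tested were 2.6% lower and 4.32% higher. Among genes of the cell cycle none of 25 was called, against 8 at an unadjusted p under 0.05, which 2155 of all 11968 genes tested had. The differences of the 25 lay between -0.61 and 0.59, and their median was -0.16. Cdkn1c, an imprinted inhibitor of the cell cycle, rose from 10.503, 10.89 and 10.90 to 12.07 and 12.52 (1.53 ± 0.19, adjusted p = 0.00107), and the imprinted receptor Igf2r rose by 1.23 ± 0.13. The other 17 of 19 imprinted growth genes tested were not called. Slc2a3, a glucose transporter, fell from 9.75, 9.75 and 9.7005 to 7.73 and 8.26 (-1.74 ± 0.17, adjusted p = 0.000344). Of 17 hypoxia and glycolysis genes 5 were lower, and 1 was without E11.5 array 1.

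Skeletal and tendon genes gave a mixed picture. Hapln1, the link protein that holds aggrecan on hyaluronan in cartilage and soft matrix, read 5.72, 5.79 and 5.54 at E10.5 and 3.52 and 3.56 at E11.5 (-2.14 ± 0.21, adjusted p = 0.000312). All E11.5 values lay more than 1 unit below the E10.5 values. Of 11 cartilage genes tested 1 was higher and 3 were lower, and the count of lower genes was 1 without E10.5 array 2 and 1 without E11.5 array 1. The higher one, Col9a2, a chain of the collagen IX on cartilage fibrils, differed by 1.57 ± 0.33 (adjusted p = 0.0223) and lost its call without E10.5 array 1 or E10.5 array 3 or E11.5 array 2 (up to 0.0883). Scx (scleraxis), the bHLH factor of tendon progenitors, read 4.70, 4.98 and 4.38 and 5.79 and 5.95 (1.19 ± 0.20, adjusted p = 0.00658), and Tnc (tenascin C), a matrix protein of tendon and myotendinous junctions, read 5.53, 6.03 and 6.04 and 6.97 and 7.31 (1.27 ± 0.21, adjusted p = 0.00627). Both calls ended without E11.5 array 2 (adjusted p = 0.0547 and 0.0569). With Thbs4, 3 of the 5 tendon genes tested were higher, and 1 without that array. The share of all genes tested that was higher was 4.32%. Of 6 bone genes measured 1 was called higher with no filter and 0 were lower, and with the filter the higher one was lost without E11.5 array 2.

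Several factors of the foregut endoderm that lines the arch were higher. Nkx2-5, a homeobox factor of the heart and pharyngeal floor, read 4.18, 4.90 and 4.92 at E10.5 and 6.94 and 7.66 at E11.5 (2.64 ± 0.29, adjusted p = 0.000608). The forkhead factors Foxa1 and Foxa2, which mark endoderm, rose by 1.38 ± 0.15 and 0.90 ± 0.12 (adjusted p = 0.000474 and 0.00183). Foxa1 read 7.09, 6.70 and 6.76 and 8.32 and 8.15, so the E11.5 arrays again stood apart. These genes rose while 13 of 21 epithelial markers fell. Of 7 pharyngeal endoderm genes tested 3 were higher and 1 lower, against 4.32% and 2.6% of all genes tested. The lower one, Sox17, a factor of endoderm and vessels (-0.83 ± 0.18, adjusted p = 0.0226), lost its call without either E11.5 array (up to 0.136). Sln (sarcolipin), a small regulator of the calcium pump in atrium and skeletal muscle, rose from 2.74, 3.37 and 4.31 to 5.99 and 6.09 (2.57 ± 0.40). Of 8 heart genes measured with no filter 3 were higher and 0 lower.

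Growth factor and stimulus genes moved singly. Igfbp3, a carrier of insulin-like growth factors, read 7.33, 7.55 and 7.48 at E10.5 and 8.74 and 9.08 at E11.5 (1.45 ± 0.16, adjusted p = 0.00061), and Irs1, an adaptor of the insulin and IGF receptors, rose by 1.37 ± 0.17. Over all 12 measured genes of IGF binding and response 3 were higher and 0 lower with no filter, with a median of 0.0023. The immediate early genes Egr1 and Fos, which respond within minutes to growth factors and to handling, moved in opposite directions. Egr1 read 4.997, 4.93 and 5.09 and 6.26 and 6.62 (1.43 ± 0.14, adjusted p = 0.000344), and Fos read 5.76, 5.72 and 5.45 and 4.30 and 4.78 (-1.10 ± 0.17, adjusted p = 0.00447). The other 9 of the 11 immediate early genes tested were not called. Itga8, an integrin of mesenchyme, rose by 1.21 ± 0.17, and Cdh4 (R-cadherin), an adhesion molecule of muscle and nerve, by 1.80 ± 0.22.

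The arrays of E9.7 and E14.5 entered the quantile normalization and the choice of probe sets, but not the difference between E11.5 and E10.5, and they show the same genes at an earlier and a later stage. Of the 517 genes that rose, 415 (80.3%) were at least 2-fold higher on the E14.5 tongue array than on the medial E9.7 array and 0 were at least 2-fold lower. Of the 311 that fell, 144 (46.3%) were at least 2-fold lower on the E14.5 array and 22 (7.07%) higher. Among all 11968 genes 14.1% were higher and 8.21% lower by this bound, which has no test since each side is 1 array. The median difference was 2.11 in the genes that rose, -0.91 in those that fell and 0.07 in all. At E14.5 the stage and the dissection cannot be told apart. On that array a probe set for the end of beta-actin RNA read 13.05 and one for its start 11.825. The probe set for the start read 13.06 to 13.34 on the other arrays. The part of RNA quality in these counts was not tested.

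On these single arrays several genes did not continue their course. Osr1 read 5.20 at E9.7 and 7.92 at E14.5, below its E11.5 values, and Tcf21 read 6.34 and 6.42. Lhx8 read 9.21 at E9.7 and 8.03 at E14.5, above both E11.5 arrays, and Tbx22 5.25 and 7.48. Krt14 stood at 7.63 at E9.7 and at 10.78 at E14.5, so its level at E11.5 was the lowest of the stages. Lum read 6.87 and 10.58. Nefm was at 8.35 and 7.95 at E11.5 and at 5.76 at E14.5. By contrast Actc1 read 4.33 at E9.7 and 13.61 at E14.5, and Agtr2 2.79 and 11.96. Msx2 was at 10.60 at E9.7 and at 4.02 at E14.5, and Cxcl14 at 7.30 and 3.10.

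**Figure D4:**
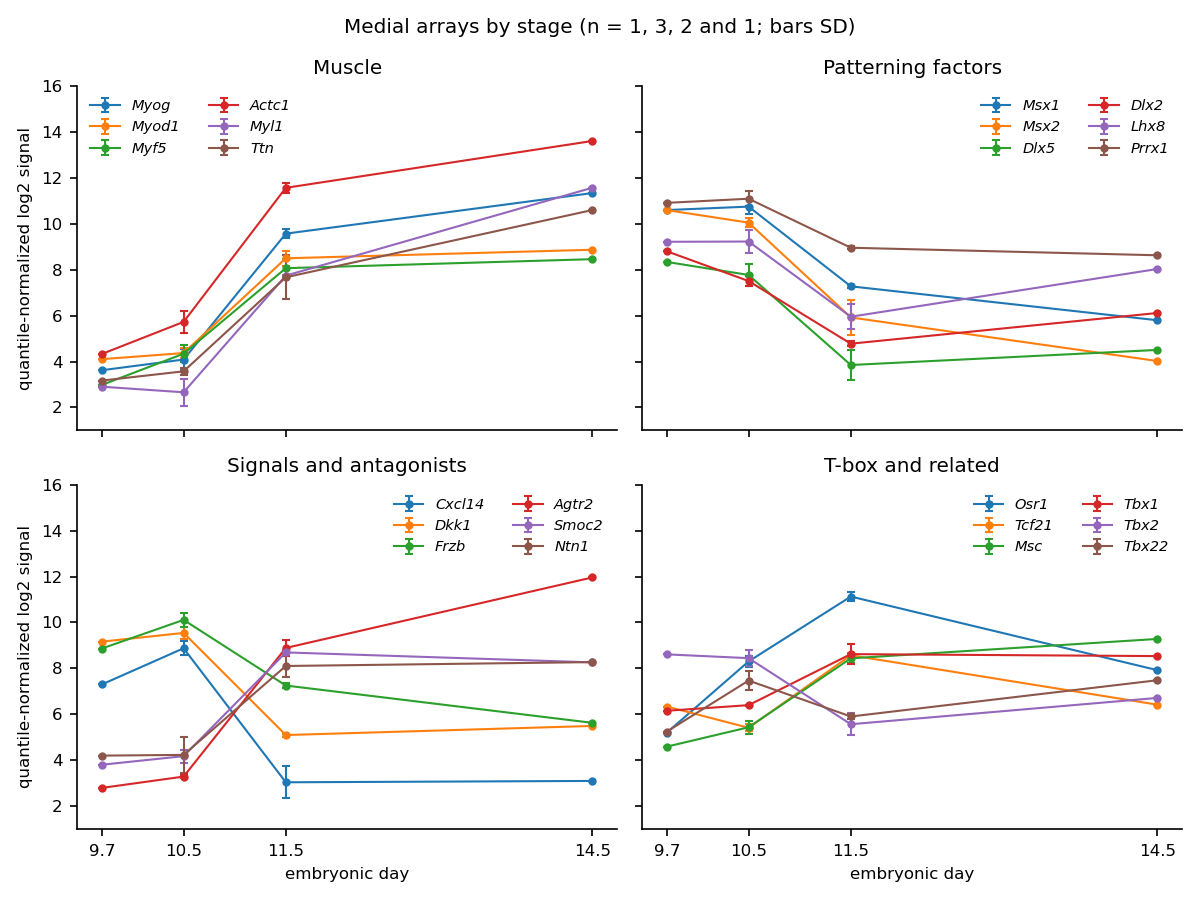
The panels show the quantile-normalized log2 signal of 24 genes in medial tissue (y axis) at E9.7, E10.5, E11.5 and E14.5 (x axis, days), with 1, 3, 2 and 1 arrays and bars of 1 SD where there is more than 1 array. The muscle genes step up between E10.5 and E11.5, most of the patterning factors step down, and Osr1, Tcf21, Lhx8 and Tbx22 turn back by E14.5.

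The 2 low arrays are replicate 1 of each stage, so the comparison can be read within them and apart from them. All 828 called genes had the same sign between the arrays numbered 1 as between the arrays numbered 2. That had to be so, since the groups of all 828 do not overlap, and it is no separate check. Myog differed by 5.63 between the low arrays and by 5.86 between the arrays numbered 2, Msx1 by -3.12 and -3.63, and Cxcl14 by -6.53 and -5.49. Some muscle genes were less alike: Acta1, the skeletal alpha actin, differed by 0.93 and 3.24, and its call ended without E11.5 array 2 (adjusted p = 0.0132 with it and 0.0565 without it). Without both low arrays 699 genes were called. Among genes named here, Dlx1, Gsc, Hand2, Isl1, Krt15, Scx, Shox2 and Sox17 were then no longer called, each with the same sign and an adjusted p between 0.0582 and 0.183. Of the 828 genes 371 were called in each of the 5 fits that leave out 1 array.

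**Figure D5:**
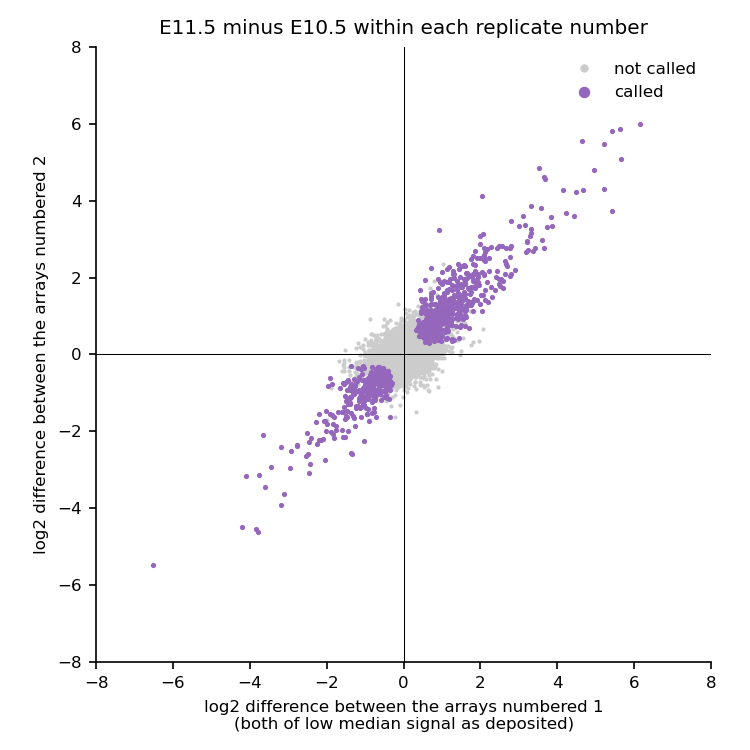
Each point is 1 gene tested, placed by its log2 difference (E11.5 minus E10.5) between the arrays numbered 1, which are the low arrays (x axis), and between the arrays numbered 2 (y axis). The called genes (purple) all lie in the quadrants where both differences have the same sign, which follows because their groups do not overlap.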

How the data were processed

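RNA from pools of 40 embryos per time point was labelled from 3 ug of total RNA, per the labels' protocols. The deposited values are on a log2 scale and were made by the authors with Affymetrix Expression Console 1.1, per the submitters' processing notes. The algorithm within that software is not given in the sources used here, and the base 2 was taken from the range of the values. The 11 arrays were quantile-normalized together. Of 45101 probe sets, 34958 have 1 gene symbol, 932 several and 9211 none in GEO's platform annotation, and 34754 matched the reference gene table by gene ID. The probe set of the highest mean stood for each gene. Further probe sets are described above for some genes only. A gene was tested if at least 2 of the 8 arrays from groups with replicates read 4.86 or more, the 50th percentile. limma 3.58.1 in R 4.3.3 was fitted to the means of 6 groups with 5 residual degrees of freedom, and Benjamini-Hochberg adjusted p-values under 0.05 over all genes tested were calls. The spread behind each SE and p-value was thus shared over the groups with replicates, the lateral E10.5 group included. The fit was tested on simulated data. No array was dropped or imputed, and summaries were made in Python 3.11.15.

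Genes named are the 20 largest rises and 20 largest falls among calls with arrays that do not overlap, members of gene lists, and every measured member of the distal and proximal patterning lists. Not all genes that the rule allows are described. The comparison, its members and the lists were chosen with earlier results of these data known. Alternatives were other scalings, filters, probe set rules, sets of arrays, variance options, weights per array, a block for the replicate number, groups of arrays with like control-probe signals, a stricter threshold and 1 array left out. Promoters came from RefSeq (GRCm38.p6).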

Additional observations from a re-analysis of the deposited data

How the results depend on the processing

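With the values as deposited, 1 gene was called (0 higher and 1 lower, 1 at least 2-fold apart), against 828 after quantile normalization. Centring each array on its median gave 455 calls (302 higher, 153 lower), quantile normalization over the 5 medial arrays 491 (343 and 148) and a fit of those arrays alone 482 (334 and 148). In the last 2 of these fits the lateral arrays do not enter the spread. A filter at the 70th percentile left 275 calls that were at least 2-fold apart, and an adjusted p under 0.01 left 419 calls (283 and 136). Groups of arrays with like control-probe signals as a fixed term gave 2182 calls (1176 and 1006), and without both low arrays there were 699. Leaving out 1 array gave 597 to 801 calls, 327 to 480 of them higher and 193 to 321 lower, and 379 to 440 were at least 2-fold apart.

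Same-numbered arrays deviated together in 2 pairs (r = 0.59 and 0.389). E10.5 array 3 deviated with E11.5 array 2 by nearly as much (r = 0.365). The 2 E11.5 arrays had to deviate as mirror images (r = -1), since each deviation is from the mean of those 2 arrays. With only 2 pairs this check cannot decide whether the numbers pair the samples, and they are not taken as pairing them. With the replicate number as a block over the medial and lateral arrays 868 genes were called, 738 of them among the 828, and over the 5 medial arrays 1176, with 763 of them.

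Genes that were not called gave signs that depend on the setting, and the cause was not tested. As deposited, Bmp4 (-0.39), Ckm (-0.58), Dlx4 (-0.32), Gbx2 (-0.24) and Lhx6 (-0.20) were lower. Ckm was also lower with the replicate block (-0.039 and -0.076), with the control-probe groups (-0.15), between the arrays numbered 1 (-0.35) and in some of the fits without 1 array (-0.12 to 0.22 over all of them). Edn1 was higher without both low arrays (0.29), between the arrays numbered 2 (0.19), with groups by average linkage, which were chosen after seeing the data (0.10), and in some of the fits without 1 array (-0.32 to 0.089 over all of them). Shh was higher with mean probe sets (0.062), array weights (0.0003), the replicate block (0.012 and 0.096), the control-probe groups (0.0055), between the arrays numbered 1 (0.15) or 2 (0.044) and without E10.5 array 3 (fits without 1 array -0.14 to 0.096). Dlx4 was lower with mean probe sets (-0.076), Gbx2 between the arrays numbered 2 (-0.20) and Lhx6 between those numbered 1 (-0.041). Pitx1 was higher without both low arrays (0.27) and without E10.5 array 1 (fits without 1 array -0.53 to 0.29). Arrays give no read depth, and the values carry no detection call, so signals below the filter have no known floor.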
